A study of Homo sapiens with 2 samples.

Results

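Nucleoporins are the proteins of the nuclear pore complex, the channel through which all regulated traffic between nucleus and cytoplasm passes. The list held 32 names and gave 31 genes, because NUP358 is another name of RANBP2, and the genes were found by their symbol among the 60664 genes counted. They were measured by RNA-seq in 2 libraries of untreated, wild-type HEK293T cells, a long-established human cell line of embryonic kidney origin in which the SV40 large T antigen is expressed. They come from work on mapping R-loops and form 1 group of 2 replicates with no contrast, so levels are described and no test between groups was run. The cell line entry of replicate 2 reads HEK294T and was taken as HEK293T from its title, and the labels do not say whether the replicates came from separate cultures.

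A scaffold of an outer ring (the Y complex) and an inner ring curves the nuclear membranes and is anchored by transmembrane nucleoporins. Nucleoporins rich in phenylalanine-glycine repeats, called FG repeats, fill the channel and bind the transport receptors, while filaments on the cytoplasmic face and a basket on the nuclear face handle cargo and exported mRNA. The 31 genes were grouped as 9 of the Y complex, 5 of the inner ring, 3 of the central channel, NUP98 with its partner RAE1, 5 of the cytoplasmic filaments, 3 of the nuclear basket and 4 of the transmembrane ring, the last counting AAAS.

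The libraries held 18011638 counts in replicate 1 and 18575058 in replicate 2 (build GRCh38). A gene with no count could still have a level of up to 0.167 CPM in replicate 1, where CPM scales counts to the size of the library, and up to 0.162 CPM in replicate 2, the worth of 3 counts. The chi-square per degree of freedom between the libraries was 12.7 across 21018 genes with at least 10 counts in all. This spread is above that of counting alone, so the 2 labels do not hold the same counts. Whether 1 library was amplified or sequenced again under both labels cannot be told from it. Separate preparations of the same culture could also differ this much. Of 7 genes listed as marks of HEK293T cells all were detected at 1 CPM in both libraries, as were 65.9% of protein-coding genes. They ran from EYA1 with 113 and 101 counts to VIM with 11435 and 8848. Of the markers of other cell types, 0 of 6 of differentiated kidney, 0 of 3 of endothelium and 1 of 2 of liver were detected. The liver marker was APOA1 with 24 and 23 counts, and UMOD, AQP2 and SLC12A3 of the differentiated kidney had 0 in both libraries.

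All 31 nucleoporin genes were detected, that is, reached 1 CPM in both libraries, as did 65.9% of the 19890 protein-coding genes. All 31 also reached 10 CPM in both libraries, against 46.2% of protein-coding genes. Counts of single members lay between 313 and 2773 in a library. The median nucleoporin stood at 17.3 TPM in replicate 1 and 17.9 TPM in replicate 2 (TPM, counts divided by exon length and scaled to the same sum in each library), against 3.07 and 2.66 TPM for all protein-coding genes and 8.93 and 7.997 TPM for the 13112 detected ones. By mean TPM, 26 of the 31 members lay above the median of detected protein-coding genes, where 50% of those genes lie. The other 5 were NUP214, SEH1L, NUP155, GLE1 and AHCTF1. This set depends on length, since 27 members lay above that median with the longest coding transcript and 29 by CPM. In bulk RNA a gene used in few cells and one used weakly in every cell cannot be told apart. Together the 31 genes took 36184 counts, or 0.201%, in replicate 1 and 37311 counts, or 0.201%, in replicate 2.

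The genes were longer and had more exons than detected protein-coding genes at the median. Their merged exons ran from 3488 to 13213 bases with a median of 8041, against 5196.5 bases for detected protein-coding genes, and the median number of merged exons was 20 against 11. The GC content of the longest coding transcript had a median of 43.8%, from 36.4% in NUP58 to 58.4% in NUP62, against 49.1% for detected protein-coding genes. They lie on 17 chromosomes.

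Promoters of 28 members were found among RefSeq's sequences of 250 bases before to 50 bases after a gene's start on GRCh38.p14, and where a gene has several the one furthest upstream was taken. AHCTF1, GLE1 and NUP43 were not matched. These promoters were GC rich, with a median of 63.5%, against 65.7% in 10375 detected protein-coding genes and 62.7% in all 15301 protein-coding genes with a promoter. Their ratio of observed to expected CpG, which is high in CpG islands, had a median of 0.867 and was at least 0.726 in every one of the 28, against a median of 0.845 in detected genes and 0.766 in all. For 19 of the 28 the RefSeq start lay within 100 bases of the start in the counted annotation, and the 3 furthest from it lay inside the counted gene, in NUP35 by 6930 bases, in AAAS by 3254 and in SEH1L by 878.

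The core CCGGAAG, read on either strand and found in the binding sites of ETS transcription factors, was in 11 of 28 (39.3%), against 19.2% of promoters of detected protein-coding genes and 14.3% of all. The TATA box TATAAA was in 0 of 28, against 5.38% and 9.71%. The CHR word TTTGAA, known from cell cycle promoters, was in 6 (21.4%), against 9.30% and 12.2%, and the NRF1 word GCGCATG in 4 (14.3%), against 7.69% and 5.87%. The CCAAT box CCAAT was in 11 (39.3%), against 37.1% and 36.7%. The GC box GGGCGGG was in 11 (39.3%), against 54.8% and 44.8%. AAGATGG (YY1) was in 3, against 7.45% and 6.40%, TGACGTC (CRE) in 3, against 5.71% and 4.62%, and CACGTG (E box) in 2, against 10.2% and 8.81%. Both strands were searched for each of the 9 words, and no word contains another. A match is a description of the letters and not of a bound site.

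**Figure D1:**
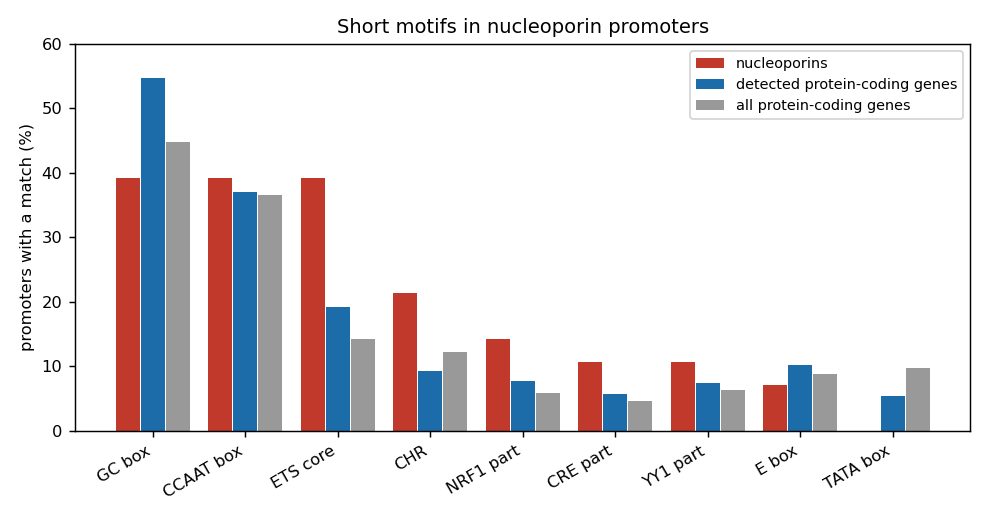
Share of promoters (%) that hold each of 9 short motifs on either strand, for the 28 nucleoporins with a promoter (left bar of each set), for detected protein-coding genes (middle) and for all protein-coding genes (right). The ETS core stands at 39.3% in nucleoporins against 19.2% and 14.3%, and the TATA box has no nucleoporin bar because its share is 0.

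The ETS cores are shown with 10 bases on each side, since this word was among those more frequent in nucleoporin promoters than in the others. Each is written 5′ to 3′ on the strand where it reads CCGGAAG, with the core in capitals, and for the members with several matches the one nearest the start is given.
SEC13 (chr3:10321109-10321135, minus strand): gggcccggcgCCGGAAGtgagctgttc
NUP37 (chr12:102120112-102120138, minus strand): gccctccgacCCGGAAGcagagccaca
NUP107 (chr12:68686958-68686984, minus strand): gcccttcgacCCGGAAGcagtctgtcc
NUP35 (chr2:183124336-183124362, plus strand): tagcgcaggtCCGGAAGttacgcaacc
SEH1L (chr18:12947840-12947866, plus strand): gcttgagggaCCGGAAGgtggggcgag
NUP54 (chr4:76148491-76148517, plus strand): gcctaagaggCCGGAAGgcgccaaggg
NUP58 (chr13:25301549-25301575, minus strand): acgtagcccgCCGGAAGtgtaaccgtc
NUP88 (chr17:5419745-5419771, plus strand): agcagacggcCCGGAAGctcgagaggc
NUP214 (chr9:131125497-131125523, plus strand): ggagcggcggCCGGAAGaacgcgcggc
NUP50 (chr22:45163907-45163933, plus strand): ggtgctactgCCGGAAGcgccggcgcg
POM121 (chr7:72879264-72879290, minus strand): caggagtgcaCCGGAAGtccgcctcct
All 11 lay upstream of the RefSeq start, and 9 were within 100 bases of it, but the cores of NUP35, SEH1L, NUP58 and NUP107 lie inside the gene as counted. NUP50 had it 5 bases, SEC13 10 bases and SEH1L 158 bases before the RefSeq start. In 6 the core was on the strand of the gene and in 5 on the other. NUP107 and NUP54 held 2 matches each. Members with the core had a median of 18.7 TPM (from 2.95 to 41.2), and the 17 without it a median of 19.4 TPM (from 5.69 to 36.8), so the ranges overlapped.

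Whole promoters are given for SEC13, the member with the highest level, NUP88, whose promoter holds both an ETS core and the start of a neighbour gene, and NUP58, the member that differed most between the libraries. Capitals again mark the ETS core.
SEC13 (chr3:10321063-10321362, minus strand): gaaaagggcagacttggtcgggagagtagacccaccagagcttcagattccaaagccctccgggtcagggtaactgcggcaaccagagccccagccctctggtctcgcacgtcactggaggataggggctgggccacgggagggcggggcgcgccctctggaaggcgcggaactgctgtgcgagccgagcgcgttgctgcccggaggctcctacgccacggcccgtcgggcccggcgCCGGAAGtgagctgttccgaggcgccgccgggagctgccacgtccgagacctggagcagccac
NUP88 (chr17:5419613-5419912, minus strand): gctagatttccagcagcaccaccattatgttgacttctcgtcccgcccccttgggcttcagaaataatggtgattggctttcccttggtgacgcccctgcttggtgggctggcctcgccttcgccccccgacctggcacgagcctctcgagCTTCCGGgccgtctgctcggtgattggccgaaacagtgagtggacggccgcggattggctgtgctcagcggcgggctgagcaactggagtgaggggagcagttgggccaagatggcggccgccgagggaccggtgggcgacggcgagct
NUP58 (chr13:25301375-25301674, plus strand): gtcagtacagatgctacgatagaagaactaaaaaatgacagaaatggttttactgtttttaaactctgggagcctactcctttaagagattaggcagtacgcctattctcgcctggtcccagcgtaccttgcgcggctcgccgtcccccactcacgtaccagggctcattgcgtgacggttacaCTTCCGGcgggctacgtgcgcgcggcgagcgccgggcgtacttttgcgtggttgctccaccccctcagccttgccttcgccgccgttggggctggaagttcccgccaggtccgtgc

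Of the 31 members, 9 (29.03%) had a detected gene on the opposite strand whose start lay within 1000 bases of their own in the counted annotation, against 23.7% of detected protein-coding genes. The neighbour of NUP88 is RPAIN, which carries the single-strand DNA binding protein RPA into the nucleus, with starts 35 bases apart and 2521 and 2377 counts. NUP43 and PCMT1, a protein repair enzyme gene, start 222 bases apart and overlap by 223 exonic bases. NUP43 had 16.4 and 15.0 TPM against 180 and 161 TPM for PCMT1. NUP98 pairs with PGAP2 at 68 bases, NUP188 with DOLK at 96, NUP37 with PARPBP at 63 and TPR with ODR4 at 145. NUP50, NUP107 and NUP153 have noncoding partners, of which NUP153-AS1 had 62 and 118 counts.

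The levels spread over 14.0-fold between members, from NUP214 (2.95 ± 0.324 TPM) to SEC13 (41.2 ± 3.89 TPM). Values after ± are SDs over the libraries (n = 2). Along the order by mean TPM, 12 of the 30 pairs of neighbours had ranges that did not overlap between the members, and in the other 18 the libraries overlapped, so most adjacent ranks are not separated.

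**Figure D2:**
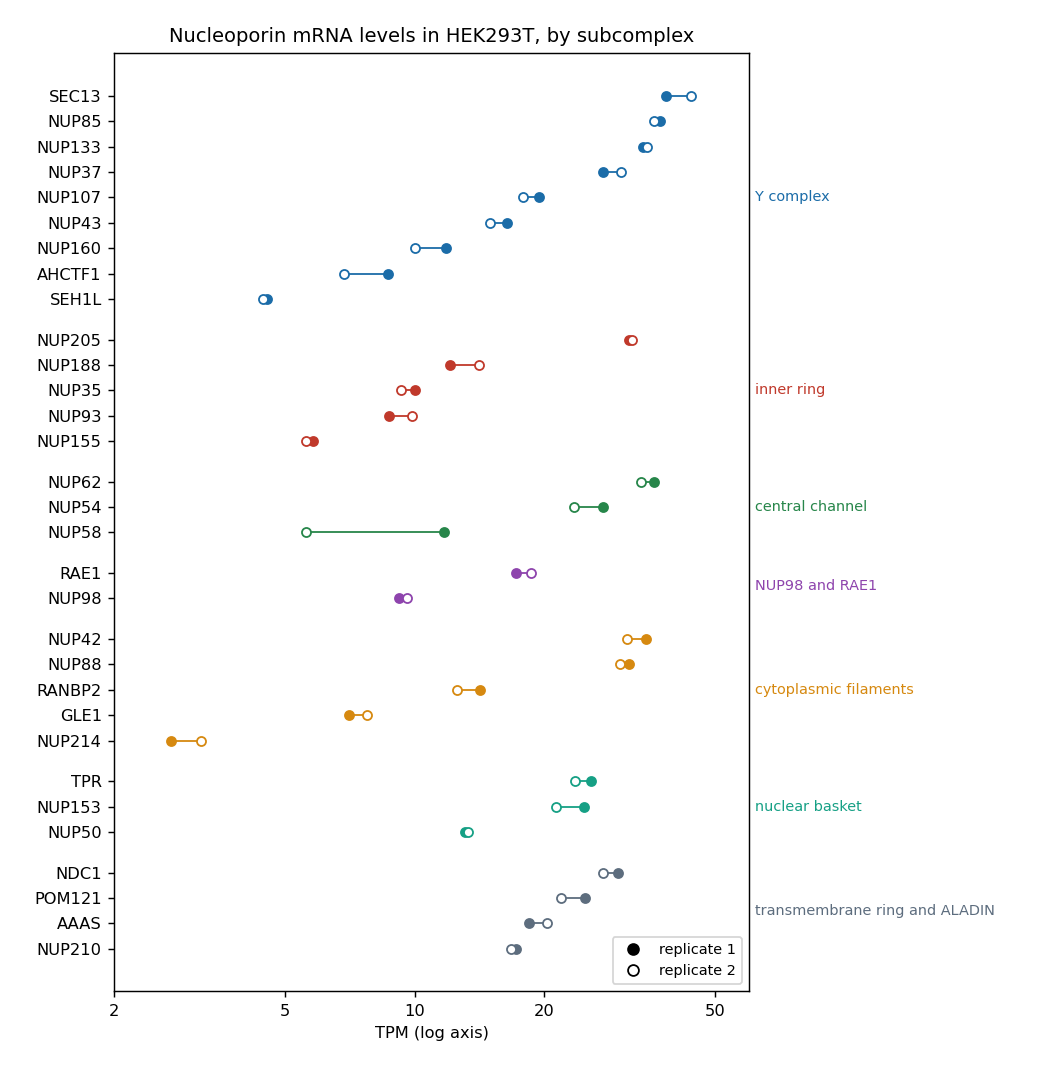
TPM (log axis) of each nucleoporin gene in replicate 1 (filled) and replicate 2 (open), grouped by subcomplex and sorted within it. SEC13 leads at 38.5 and 44.0 TPM, NUP214 is lowest at 2.72 and 3.17, and NUP58 has the widest gap, 11.7 and 5.59.

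The Y complex is the main repeating unit of the outer rings. Its 9 genes had a median of 19.5 TPM in replicate 1 and 17.9 in replicate 2 and took 10176 and 10816 counts. SEC13 (ENSG00000157020, chromosome 3 from 10293131 to 10321112, minus strand) is a beta-propeller protein that also serves in the COPII coat of secretory vesicles, and had 1806 and 2223 counts, or 38.5 and 44.0 TPM. NUP85, which binds SEH1L in the short arm of the Y, had 1691 and 1765 counts, or 37.3 and 36.2 TPM. NUP133, at the end of the stem and able to bind curved membrane, had 34.1 and 34.8 TPM. With coding transcript length NUP133 (27.7 and 28.4 TPM) overlapped NUP37 (28.1 and 31.1 TPM). With merged exon length these 3 were the upper end of the complex, and their ranges lay above those of the other 6. NUP37, a propeller bound to NUP160, followed with 27.5 and 30.2 TPM, NUP107 in the stem with 19.5 and 17.9, and NUP43, a propeller of the short arm, with 16.4 and 15.0. NUP160, a large scaffold subunit, had 11.8 and 10.02 TPM. AHCTF1 encodes ELYS, which binds chromatin and starts pore assembly after mitosis, and had 726 and 617 counts, or 8.69 and 6.86 TPM. SEH1L (ENSG00000085415, chromosome 18 from 12947133 to 12987536, plus strand), like SEC13 a propeller shared with the nutrient sensing complex GATOR2, was the lowest of the complex at 4.54 and 4.44 TPM, from 415 and 437 counts. SEC13 stood 9.19-fold above SEH1L by mean TPM and 4.72-fold by CPM, the highest and lowest members on both scales. When TPM used the longest coding transcript, the highest stood 16.5-fold above the lowest. The lowest was then AHCTF1 (5.83 ± 0.942 TPM), with SEH1L at 9.38 ± 0.0996.

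Of the inner ring genes 1 was high and 4 were lower. NUP205, a large solenoid scaffold, had 2095 and 2302 counts, or 31.5 and 32.2 TPM. Its related scaffold NUP188 had 850 and 1065 counts, or 12.1 and 14.1 TPM, a range below that of NUP205 in both libraries. NUP93, which links the ring to the central channel, had 8.72 and 9.89 TPM. NUP35, a small membrane binding subunit, had 9.998 and 9.31 TPM from 351 and 352 counts, and had 19.2 ± 0.38 CPM, which was not separate from the 19.3 ± 2.71 CPM of NUP214. NUP155, which also touches the membrane, had 5.81 and 5.58 TPM from 464 and 480 counts.

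The central channel genes encode 3 FG nucleoporins that assemble with each other. NUP62 had 1891 and 1908 counts, or 36.0 and 33.7 TPM, and NUP54 955 and 883 counts, or 27.4 and 23.6 TPM. NUP58 (ENSG00000139496, chromosome 13 from 25301556 to 25349800, plus strand) had 1062 and 546 counts, or 11.7 and 5.59 TPM. By TPM it was below both partners in each library, but by CPM it was above NUP54 in replicate 1 (59.0 against 53.0). The libraries parted on NUP58 more than on any other member.

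NUP98 and RAE1 work together in mRNA export. The NUP98 gene encodes a precursor that cuts itself into NUP98, an FG nucleoporin, and NUP96, a stem subunit of the Y complex, so its count stands for both proteins. NUP98 had 793 and 895 counts, or 9.18 and 9.62 TPM. RAE1, a propeller that binds NUP98, had 848 and 987 counts, or 17.2 and 18.6 TPM, above NUP98 in both libraries.

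The cytoplasmic filament genes spread over 11.2-fold by mean TPM, the widest of any subcomplex on that scale, but by CPM the inner ring was wider (6.25-fold against 4.74-fold for the filaments) and by coding transcript length the Y complex (16.5-fold against 15.6-fold). NUP42, which binds GLE1, had 1314 and 1278 counts, or 34.6 and 31.3 TPM. NUP88, the anchor of NUP214, had 1650 and 1698 counts, or 31.5 and 30.1 TPM, though 32.3% of its exon sequence also belongs to another gene. RANBP2, the giant filament protein that binds Ran and SUMO-modified RANGAP1, had 1521 and 1449 counts, or 14.2 and 12.5 TPM. GLE1, the activator of the helicase that strips export factors from mRNA, had 7.04 and 7.74 TPM. NUP214 (ENSG00000126883, chromosome 9 from 131125586 to 131234663, plus strand), an FG nucleoporin that binds the exportin XPO1, had 313 and 394 counts and was the lowest of all members by TPM, at 2.72 and 3.17. Against it stands the median of all protein-coding genes, 3.07 and 2.66 TPM, so the order of NUP214 and that median differed between the libraries. With coding transcript length NUP214 was above that median in both, at 3.28 and 3.86 against 3.05 and 2.65 TPM, and by CPM too, at 17.4 and 21.2 against 8.88 and 8.13. NUP88, its direct partner, was above it in both.

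The nuclear basket genes spread over 1.87-fold by mean TPM and 2.80-fold by CPM. TPR, the long coiled-coil protein of the basket, had the most counts of all members, 2773 and 2745, or 25.7 and 23.7 TPM. NUP153, the FG nucleoporin at the base of the basket, had 1325 and 1229 counts, or 24.8 and 21.4 TPM, and NUP50, a mobile cofactor of import, 940 and 1029, or 13.1 and 13.3 TPM. With merged exon length TPR and NUP153 overlapped in range, and NUP50 was below both. By CPM TPR was above NUP153 in both libraries, at 154 and 148 against 73.6 and 66.2. With coding transcript length it was too, at 22.7 and 21.1 against 17.5 and 15.2 TPM.

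The transmembrane ring genes spread over 1.68-fold by mean TPM, against 1.87-fold for the basket, while they spread over 2.58-fold against 1.51-fold by coding transcript length and 2.50-fold against 2.80-fold by CPM. NDC1 had 1222 and 1219 counts, or 29.7 and 27.5 TPM. POM121 had 2138 and 2028 counts, or 24.9 and 21.9 TPM, and NUP210, whose protein lies mostly between the nuclear membranes, 1234 and 1289, or 17.3 and 16.7 TPM. AAAS encodes ALADIN, a propeller that NDC1 holds at the pore, and had 763 and 904 counts, or 18.5 and 20.4 TPM.

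Set beside each other per library, the subcomplex medians were 27.4 and 23.6 TPM for the central channel, 24.8 and 21.4 for the basket, 21.7 and 21.1 for the transmembrane ring, 19.5 and 17.9 for the Y complex, 14.2 and 12.5 for the cytoplasmic filaments, 13.2 and 14.1 for NUP98 with RAE1 and 9.998 and 9.89 for the inner ring. The inner ring was the lowest in both libraries and the central channel the highest, and both also held with coding transcript length, at 11.9 and 13.9 TPM for the inner ring and 32.1 and 27.8 TPM for the central channel. By CPM neither held in either library. The inner ring had 47.0 and 55.6 CPM, the central channel 59.0 and 47.5 CPM and the cytoplasmic filaments 73.0 and 68.8 CPM. Members of a subcomplex are few and are not replicates, so these medians are descriptions.

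The choice of length moved single members further. SEC13 went to 96.5 ± 9.61 TPM with its coding transcript of 1603 bases in place of merged exons of 5380, NUP85 to 62.7 ± 1.06 and NUP42 to 55.6 ± 3.71. GLE1, at 7.39 ± 0.498 TPM with 10755 merged bases, stood at 16.7 ± 1.21 with 3321. NDC1 went the other way, to 18.3 ± 0.895 TPM against 28.6 ± 1.55. Its coding transcript in GENCODE 29 has 5134 bases, more than its 4720 merged bases in the counted annotation. The 2 annotations therefore differ for NDC1, and its lower value includes that difference. NUP214 was the lowest and SEC13 the highest under both lengths. Across the 31 genes TPM was lower for longer genes (Spearman's rho -0.62, Pearson's r -0.61), as CPM was not (rho -0.077, r -0.020); these are descriptions across genes, which share the 2 libraries, and length is a divisor of TPM.

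**Figure D3:**
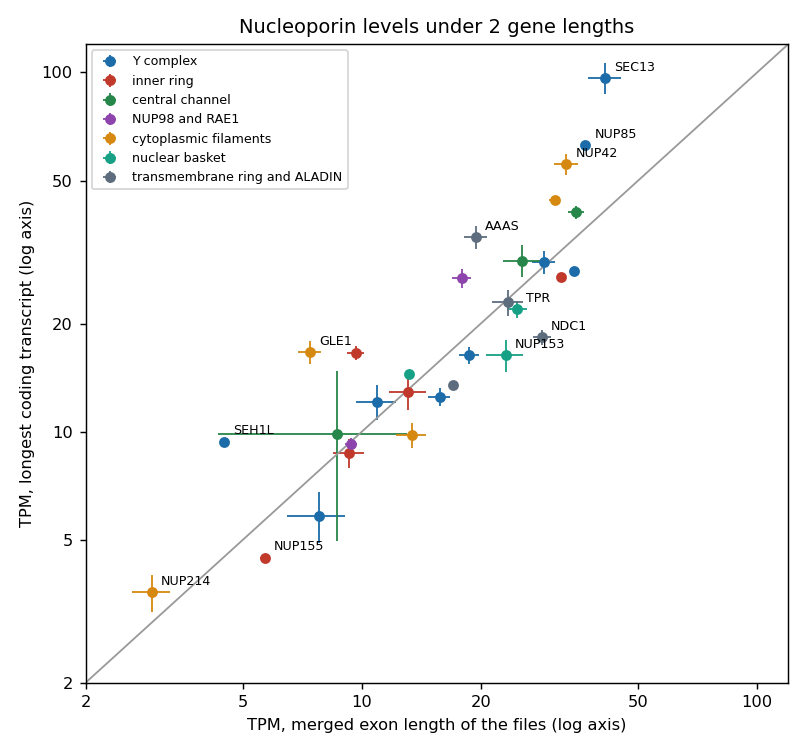
Mean TPM of each nucleoporin with the merged exon length of the files (x, log axis) and with the longest coding transcript of GENCODE 29 (y, log axis), error bars SD over the 2 libraries and the line marking equal values. SEC13, NUP85, NUP42, GLE1 and AAAS are among those above the line and NDC1 and NUP153 among those below it.

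Between the libraries, 30 of 31 members lay within 0.5 log2, as did 88.3% of the 14704 genes whose mean count reached 50. Ratios are replicate 1 over replicate 2 with TMM scaling, and with 1 library on each side they carry no test. Past 0.5 log2, 1 member was higher in replicate 1, against 8.84% of all genes, and 0 were higher in replicate 2, against 2.86%. Past 1 log2 there was no member in either direction, against 1.92% and 0.143% of all genes. Leaving NUP58 out, the largest ratio was 0.32 log2 in size. The median ratio of the members was -0.035 log2 and that of all genes -0.00039.

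NUP58 was the exception, with 1062 counts in replicate 1 and 546 in replicate 2. This was 59.0 CPM (55.5 to 62.6, exact 95% binomial interval) against 29.4 CPM (26.98 to 31.97), a 1.96-fold ratio (0.97 log2, counting interval 0.82 to 1.13). The intervals cover counting error only. Its transcript has the lowest GC content of the members, 36.4%. The 718 genes with a GC content of 23.1% to 37.1% had a median ratio of 0.45 log2, and 17.1% of them had a ratio at or above that of NUP58, against 2.09% of all 14704 genes. After centring on GC class, the ratio of NUP58 was 0.53. The part of GC content in this difference was not tested.

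Smaller differences ran with GC content in the other members too. Across the 31, the ratio was higher in genes of low GC content (Spearman's rho -0.48, Pearson's r -0.45), and across the 30 without NUP58 rho was -0.43, beside -0.43 over 14355 genes with a GC value. AHCTF1 (40.3% GC) had 726 and 617 counts and a ratio of 0.25 (0.092 to 0.41). At the other end, NUP214 (51.5% GC) had a ratio of -0.32 (-0.54 to -0.10), NUP188 (52.5%) -0.31 (-0.44 to -0.18) and SEC13 (54.8%) -0.29 (-0.38 to -0.20). Members that did not follow this order included those of highest GC content, NUP62 (58.4%) with a ratio of 0.00084, NUP210 (58.3%) with -0.049 and POM121 (57.7%) with 0.09 (0.0016 to 0.18). Nor did NUP37, with 38.6% GC, 837 and 991 counts and a ratio of -0.23 (-0.36 to -0.096), or -0.54 after centring on GC class. The centred ratio was 0.087 for AHCTF1, -0.25 for NUP214, -0.23 for NUP188 and -0.19 for SEC13. The counting interval lay above 0 for 5 members, where 24.6% of all genes had it, and below 0 for 11, where 22.4% did. The shares of all genes include genes with fewer counts than any member, whose intervals are wider. All these points share the same 2 libraries.

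**Figure D4:**
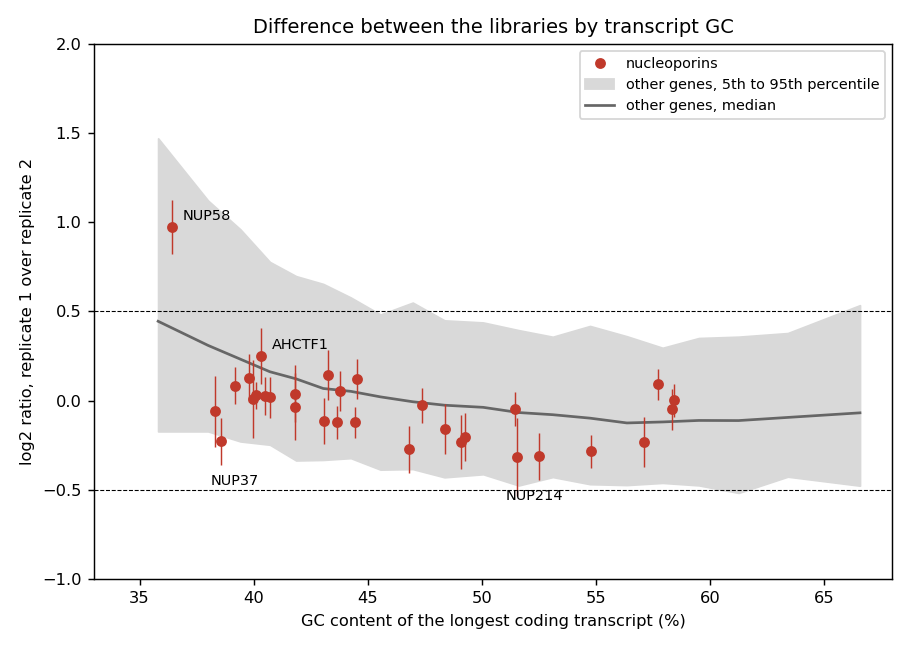
Log2 ratio of replicate 1 over replicate 2 against the GC content (%) of the longest coding transcript, for the nucleoporins (points, bars the exact 95% counting interval) and for other genes whose mean count reached 50 (line the median and band the 5th to 95th percentile of 20 GC classes). NUP58 stands at 0.97 with the lowest GC content, and the other members lie between the dashed lines at 0.5 log2 in either direction.

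Counts of some members are uncertain because their exons overlap another gene or have close copies. Of the 31, 13 share no exonic base with another gene, 17 share less than 25% and NUP88 shares 32.3%, most of it (1905 bases) with RABEP1 on the opposite strand, which had 1641 and 1580 counts. POM121 shares 1849 bases with the pseudogene NSUN5P2 on the opposite strand, which had 1863 and 1721 counts. NUP62 shares exonic bases with IL4I1, ATF5 and the unnamed gene ENSG00000269179, 20.1% of its length in all. NUP42 shares 566 bases with the antisense gene ENSG00000285926, which had 679 and 575 counts. GLE1 shares 1707 bases, 15.9% of its length, with the antisense gene ENSG00000228395, which had 97 and 114 counts. NUP43, with 634 and 623 counts, shares 223 bases with PCMT1 on the opposite strand, which had 4455 and 4273. TPR shares 670 bases with PRG4, the gene of the joint lubricant lubricin, on the other strand, and PRG4 had 407 and 290 counts. Whether the counting used strand is not given in the sources used here, so reads of such pairs cannot be assigned to one gene.

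Copies of the members had fewer counts than the members themselves. POM121C, a close copy of POM121, had 807 and 597 counts, or 10.5 and 7.22 TPM. The 7 RGPD genes, which arose from copies of RANBP2, had 100 and 80 counts in all, led by RGPD8 with 45 and 23. Reads that match both copies can be lost or split, so POM121 and RANBP2 are uncertain. NUP62CL, a relative of NUP62, was well detected with 405 and 308 counts, or 24.9 and 17.6 TPM. NUP210L had 0 and 5 counts, POM121L2 3 and 4, POM121B 0 and 1 and POM121L12 0 in both.

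The soluble transport machinery that works through the pore was expressed beside it. All 13 import receptors of the importin beta family were detected, with a median of 15.3 and 13.2 TPM, from RANBP17 (1.56 ± 0.0745 TPM) and IPO11 to IPO5 and KPNB1, the main importin beta (47.3 ± 6.75). Of 7 importin alphas, the adaptors for classical import signals, 6 were detected, with KPNA2 at 56.2 ± 1.57 TPM and KPNA3 next at 12.9 ± 3.41, KPNA5 at 3.51 ± 2.30 and KPNA7 at 0 counts. All 7 exportins were detected with a median of 19.4 and 16.6 TPM, led by CSE1L, which returns importin alpha (85.3 ± 1.92), and XPOT, the tRNA exportin (42.8 ± 6.09), with XPO7 and XPO4 (2.85 ± 0.328) lowest. The importin alpha median was 10.8 and 10.4 TPM. The nucleoporin median of 17.3 and 17.9 TPM lay above the medians of the import receptors and importin alphas in both libraries, and the exportin median lay above it in replicate 1 and below it in replicate 2, but above it in both by CPM and by coding transcript length. The Ran cycle stood higher, with 7 of 7 detected and a median of 122 and 128 TPM. RAN, the GTPase that sets the direction of transport, had 17855 and 18031 counts, a number equal to 49.3% and 48.3% of the summed counts of the 31 nucleoporin genes, of which RAN is not one, and 425 ± 19.3 TPM. RANBP1 had 256 ± 20.1 TPM, and RANGAP1 (65.5 ± 5.74) and RANBP3 (13.6 ± 0.682) were the lowest of that list. Of the exon sequence of RANGRF in the Ran cycle 79.9% also belongs to another gene, as does 69.5% for the import receptor IPO4. Their counts are therefore uncertain.

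**Figure D5:**
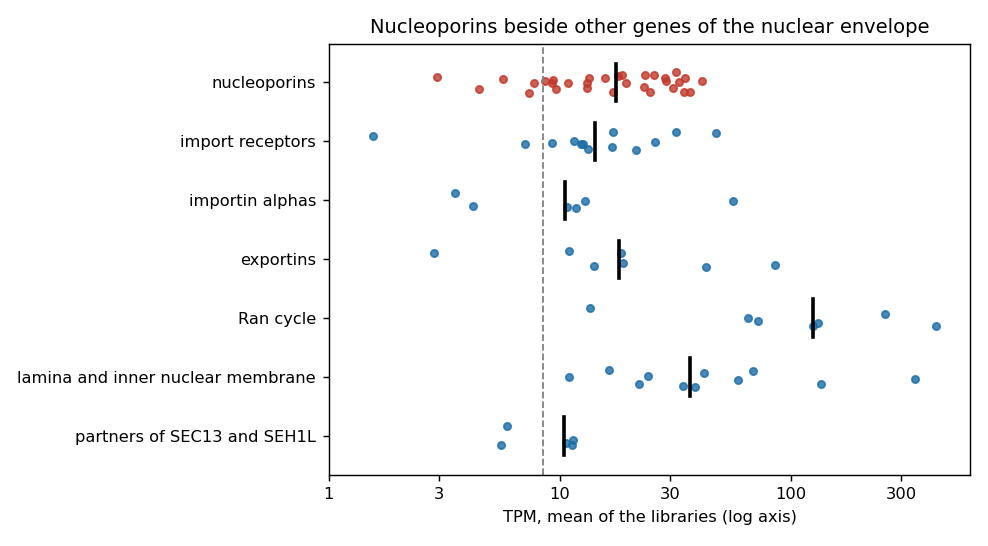
Mean TPM over the libraries (log axis) of each nucleoporin (top row) and of genes of 6 related lists, with the list median as a black bar and the median of detected protein-coding genes as a dashed line. Nucleoporins span 2.95 to 41.2 TPM, Ran cycle genes reach 425, and KPNA7, at 0 counts, is not drawn.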

How the data were processed

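Total RNA of untreated HEK293T cells was copied into cDNA from an oligo(dT) primer, and sonicated cDNA was denatured before library preparation, per the labels' protocols. The authors deposited raw counts per Ensembl gene, not normalised, 1 library per file. The tools listed are featureCounts 2.0.3, Trim Galore 0.6.7 and bcl2fastq 2.17, with build GRCh38, per the submitters' processing notes. For the aligner, annotation release and strand setting: not given in the sources used here. Of 60664 IDs, 60463 matched a symbol, and GENCODE 29 on the same build typed 19890 as protein-coding and gave transcript lengths and GC content.

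CPM and TPM were computed from the deposited counts, library totals and exon lengths. The log2 ratio (replicate 1 over replicate 2) was computed on all genes in edgeR 4.0.16 (R 4.3.3). It was scaled by TMM (factors 1.01 and 0.989) after adding a prior of 2 counts. DESeq2 1.42.0 size factors were an alternative, but they were 1 for both libraries and so left the counts unscaled. Exon overlap and intervals were computed in Python 3.11.15 (scipy 1.17.1). Ratios were tested on simulated data. All members are named, and of each other list the 2 highest and 2 lowest by mean TPM, except that all copies are named or summed. RANGRF and IPO4 are named for their exon overlap. The members, lists, motifs and thresholds were chosen with earlier results of these data known. The replicates may be technical, so spreads measure only these libraries. Some markers of other cell types were measured and are not reported here.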

Additional observations from a re-analysis of the deposited data

How the results depend on the processing

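All 31 genes were also detected at 1 TPM and at 10 CPM in both libraries. Detection in each library alone follows from the definition and adds nothing. The median nucleoporin lay 2.62 log2 (SD 0.187, n = 2) above the median protein-coding gene. This was 2.68 with CPM, 2.54 with the longest coding transcript and 2.60 without NUP88, POM121 and RANBP2. Replicate 1 alone gave 2.49 and replicate 2 alone 2.75. The subcomplex medians depend on length. Relative to the median nucleoporin, CPM in place of TPM gave -0.086 log2 for the Y complex (0.086 with TPM), -0.087 for the inner ring (-0.82), -0.037 for the central channel (0.53), -0.18 for NUP98 with RAE1 (-0.37) and 0.38 for the cytoplasmic filaments (-0.40). The longest coding transcript gave -0.36 for the inner ring, 0.85 for the central channel, 0.12 for NUP98 with RAE1, 0.0072 for the filaments and -0.024 for the basket (0.39). Without NUP88, POM121 and RANBP2, the filaments stood at -1.23 and the transmembrane ring at 0.17 (0.28), with fewer members. With 2 libraries, the shift on leaving out either is set by their SD and says nothing on stability. For single members, 27 of 31 levels moved beyond the SD with CPM and 25 with the coding transcript.

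The count of members higher in replicate 1 was 1 under 8 alternatives and 0 at a fold of 1 log2. The count higher in replicate 2 was 0 under those alternatives, except that centring on transcript GC gave 1 (NUP37). The median ratio of -0.035 log2 was -0.0045 with library totals alone and -0.14 after centring on GC. The ratios of 14 members moved beyond their counting interval with GC centring and of 0 under the other scalings, priors and length centring. No paired analysis was possible because the labels give 1 group. The counting interval of the ratio covered 0 for 15 of 31 members. For NUP214, with 313 and 394 counts, it lay below 0, from -0.54 to -0.10. These intervals hold counting error only. The chi-square per degree of freedom between the libraries was 11.2 over the members and 5.48 without NUP58, a spread above that of counting alone.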

Other observations

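Neighbouring sets of genes were measured as well. Genes of the lamina and inner nuclear membrane, which line the nucleus between the pores, had 11 of 11 detected and a median of 40.4 TPM in replicate 1 and 33.03 in replicate 2, above the median nucleoporin in both libraries. BANF1, which ties chromatin to the envelope after mitosis, had 346 ± 12.6 TPM (SD, n = 2) and EMD, which encodes emerin, 136 ± 17.3. LEMD2 (16.4 ± 1.44 TPM) and LEMD3 (11.01 ± 6.09) were lowest, and LEMD3 had 745 and 351 counts, a ratio of 1.10 log2.

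The partners of SEC13 and SEH1L outside the pore lay lower. The 5 genes had a median of 11.4 and 9.54 TPM. WDR24 (11.4 ± 0.384 TPM) and WDR59 (11.3 ± 0.145), which join both propellers in the GATOR2 complex, were highest. MIOS of the same complex (5.93 ± 0.16) and SEC31B of the COPII coat (5.57 ± 0.4) were lowest. The count of WDR24 is uncertain, since 35.7% of its exon sequence also belongs to another gene. SEC13 itself stood at 41.2 ± 3.89 TPM and SEH1L at 4.49 ± 0.0714.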
